A study of Homo sapiens with 8 samples.

Results

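The glucose transporter genes examined here are 8 members of the SLC2A family, together with 2 genes that carry the family name but encode no transporter. Members were taken by symbol, and all 10 of them were found among the 23193 genes counted: SLC2A1, SLC2A3, SLC2A6, SLC2A8, SLC2A10, SLC2A11, SLC2A12, SLC2A13, the antisense RNA gene SLC2A1-AS1 and SLC2A4RG. PRO-seq, which maps engaged RNA polymerase by letting it extend its RNA briefly in isolated nuclei, had been carried out in HCT116, an established human colorectal carcinoma line. The 4 groups were WT cells in normoxia, WT cells exposed to 1% O2 for 90 min, HIF1A-/- cells in normoxia and HIF1A-/- cells exposed to 1% O2 for 90 min, and every culture received the vehicle DMSO. The HIF1A-/- line was made by homologous recombination that disrupted internal exons of HIF1A, whose product is the oxygen-regulated subunit of the transcription factor HIF-1. Whether the line is 1 clone is not given in the sources used here, so differences between the genotypes are differences between 2 cell lines. Each group had 2 libraries from separately prepared nuclei, 8 in all, so p-values measure the spread between these preparations.

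SLC2A proteins (GLUTs) carry hexoses and related polyols across membranes by facilitated diffusion, with the exception of the proton-coupled myo-inositol carrier encoded by SLC2A13. GLUT1, from SLC2A1, serves basal glucose uptake in most cells, and GLUT3, from SLC2A3, is a high-affinity carrier best known from neurons. Both genes are textbook targets of HIF-1, which under low oxygen raises glucose uptake and glycolysis. Most of their relatives are less well understood: GLUT6 and GLUT8 lie mainly on intracellular membranes, and SLC2A4RG encodes a DNA-binding regulator of the SLC2A4 gene.

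Reads had been counted in 2 regions per gene, the TSS region (551 bp around the start) and the gene body (from position 1001 to the gene end), on the GRCh37 genome. Gene body totals ran from 18125234 to 23622392 reads per library and TSS totals from 2783581 to 5966348. The lowest TSS totals were those of HIF1A-/- replicate 1, at 2783581 in normoxia and 3011758 in hypoxia. Gene body totals of these libraries, 21999565 and 20332353, lay within the range of the others. Levels of 1 gene across libraries are given as CPM, its reads scaled to the TMM-normalized library size, and levels of different genes are compared as RPKM, the same value per kilobase of gene body. A gene is said to have risen, fallen or been called when its adjusted p (edgeR's quasi-likelihood test, Benjamini-Hochberg over all genes tested) was under 0.1. Unless another fit is named, the fit had no term for the replicate number (no block). The SE given with a log2 change is an approximation, the absolute change divided by the square root of the quasi-likelihood F statistic. All 10 members passed the filter on low counts in gene bodies and 9 passed it at the TSS, the exception being SLC2A10. The HIF1A gene body itself held 129.5 to 175 CPM in the 8 libraries and was not called between genotypes, but the count over the whole gene does not test for a short deletion. Of 8 epithelial markers, 6 exceeded 0.5 CPM in all 8 libraries (VIL1 and CDX1 did not), with summed levels of 873 to 1250 CPM. Immune and endothelial markers summed to at most 4.65 CPM. Of the fibroblast markers, COL1A2 and COL3A1 were not above 0.5 CPM throughout, and the list of 4 summed to 21.7 to 56.9 CPM.

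SLC2A1 and SLC2A1-AS1 start close together on opposite strands of chromosome 1, and their promoter sequence is shown because both genes share it. In the count tables (GRCh37), the SLC2A1 gene body spans chr1:43391045-43423846 on the minus strand and that of SLC2A1-AS1 spans chr1:43425720-43449029 on the plus strand. Their TSS positions lie 128 bp apart and their TSS regions share 229 bp, or 41.6% of each region. The start used for SLC2A1 lies 283 bp upstream of the nearest annotated start (GENCODE, GRCh37), whereas that of SLC2A1-AS1 lies 1 bp from one. In RefSeq (GRCh38.p14), the antisense gene is listed as SLC2A1-DT, and 180 bases of the 250 upstream of each start are the same DNA read on opposite strands. RefSeq starts need not equal the counted starts. For SLC2A1, 250 bases before the nearest annotated start would all lie downstream of the counted start. The 250 bases upstream of each RefSeq start follow, 5′ to 3′ on the strand of the gene, with TATAAA (or its reverse complement TTTATA) in capitals:
SLC2A1, chr1:42958869-42959118, minus strand: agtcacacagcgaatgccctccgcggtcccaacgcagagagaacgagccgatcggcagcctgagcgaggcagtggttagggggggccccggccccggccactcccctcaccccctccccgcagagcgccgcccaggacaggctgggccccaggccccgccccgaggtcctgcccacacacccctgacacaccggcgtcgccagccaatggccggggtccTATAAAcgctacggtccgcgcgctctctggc
SLC2A1-AS1, chr1:42958799-42959048, plus strand: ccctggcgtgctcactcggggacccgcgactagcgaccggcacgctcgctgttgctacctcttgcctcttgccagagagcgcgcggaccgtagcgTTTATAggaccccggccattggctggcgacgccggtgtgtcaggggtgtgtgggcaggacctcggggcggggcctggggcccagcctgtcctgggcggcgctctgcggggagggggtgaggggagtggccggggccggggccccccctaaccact

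Promoters of 9 of the 10 members were matched by gene identifier in the RefSeq table, all but that of SLC2A3. They were searched on both strands over the same 250 bases for TATAAA, the TATA box, and for ACGTG, 1 form of the hypoxia response element core. The other form, GCGTG, was not searched for, and the SLC2A1-AS1 window printed above holds it. A window without ACGTG is therefore not shown to lack the core. TATAAA was found at SLC2A1, starting 31 bases before the RefSeq start on the strand of the gene. It was also found in the same DNA read from SLC2A1-AS1, against 10.7% of the 35116 promoters in the table. ACGTG was found at 2 members, SLC2A10 and SLC2A13, against 18.5% of all promoters, and neither SLC2A1 nor SLC2A1-AS1 held it within this window. At SLC2A13 the 2 matches are 1 palindromic site, CACGTG, read on each strand, 25 bases before the RefSeq start. The SLC2A13 window is shown with ACGTG and its reverse complement in capitals, and whether these letters bear on its transcription was not tested:
SLC2A13, chr12:40106082-40106331, GRCh38.p14, minus strand: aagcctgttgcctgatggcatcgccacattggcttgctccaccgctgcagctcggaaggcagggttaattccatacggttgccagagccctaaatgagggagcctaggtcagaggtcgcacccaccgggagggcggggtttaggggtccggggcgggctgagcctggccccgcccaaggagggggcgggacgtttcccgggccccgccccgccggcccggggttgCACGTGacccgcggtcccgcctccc
These matches describe letters in a fixed window and are not measurements of binding.

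**Figure D1:**
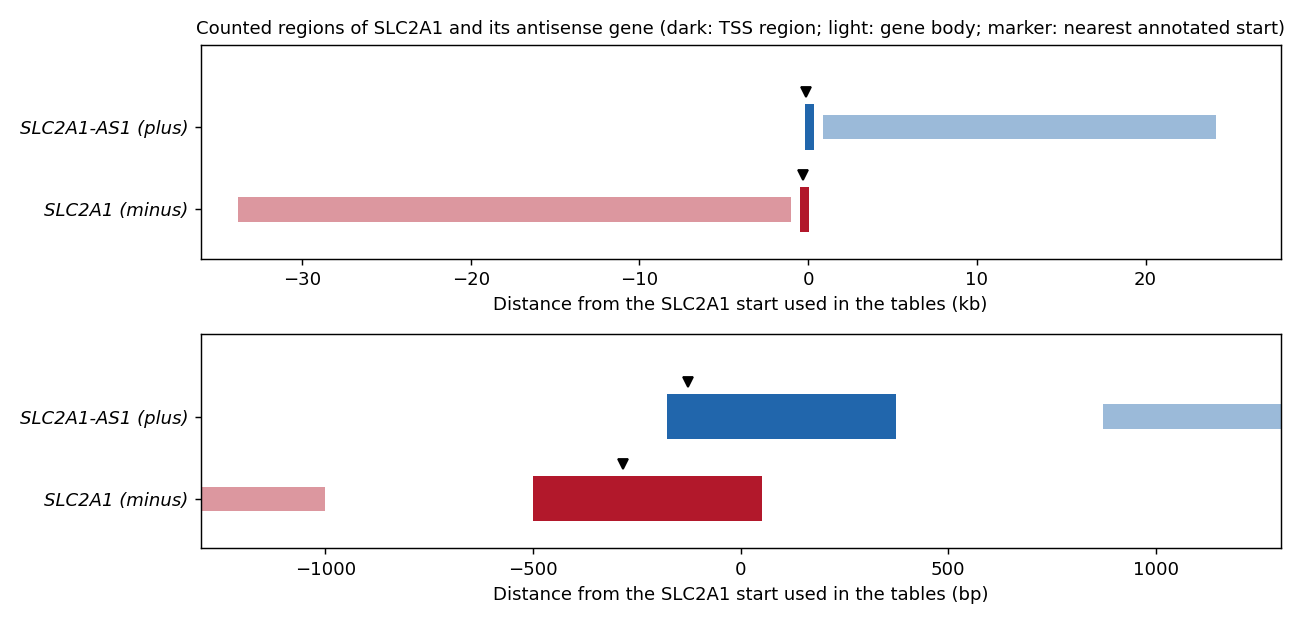
Counted regions of SLC2A1 and SLC2A1-AS1, drawn to scale as distance from the SLC2A1 start used in the tables, in kb over the whole locus (top) and in bp around the starts (bottom). Dark bars are TSS regions, light bars are gene bodies and triangles mark the nearest annotated start of each gene; the TSS regions overlap by 229 bp while the gene bodies do not overlap.

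Because the TSS regions overlap, whether reads had been assigned by strand decides whether the pair can be told apart. Among genes whose body lies wholly inside another gene's body, all 431 on the same strand as the enclosing gene had 0 reads in all libraries, against 185 of 876 (21.1%) on the opposite strand. Overlapping genes on opposite strands therefore mostly kept counts of their own, and SLC2A1 and SLC2A1-AS1 are treated below as separate measurements of strand-assigned reads.

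In normoxic WT cells SLC2A4RG, and not a transporter, had the highest transcription per kilobase, and SLC2A1 moved to the top in each of the other groups. Gene body levels in normoxic WT cells were 11.4 ± 0.809 RPKM for SLC2A4RG (SD, n = 2), 3.91 ± 0.566 for SLC2A6 and 3.59 ± 0.832 for SLC2A1, and the latter 2 did not differ beyond their spread. SLC2A8 (1.96 ± 0.0627 RPKM) and SLC2A11 (1.32 ± 0.138) followed, then SLC2A1-AS1 at 0.819 ± 0.235. The 4 lowest were SLC2A13 at 0.327 ± 0.0316 RPKM, SLC2A12 at 0.182 ± 0.0772, SLC2A3 at 0.149 ± 0.0320 and SLC2A10 at 0.0303 ± 0.0210, with SLC2A3 inside the spread of SLC2A12.

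SLC2A1 reached 14.6 ± 3.09 RPKM in hypoxic WT cells, 12.9 ± 2.23 in normoxic HIF1A-/- cells and 12.4 ± 3.31 in hypoxic HIF1A-/- cells. In these 3 groups SLC2A4RG came next at 10.5 to 12.2 RPKM, within the spread of SLC2A1 in HIF1A-/- cells. SLC2A3 showed the largest change of place, from 9th of 10 in normoxic WT cells to 4th in both HIF1A-/- groups, where it stood at 2.16 ± 0.413 RPKM in normoxia and 2.83 ± 0.258 in hypoxia.

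**Figure D2:**
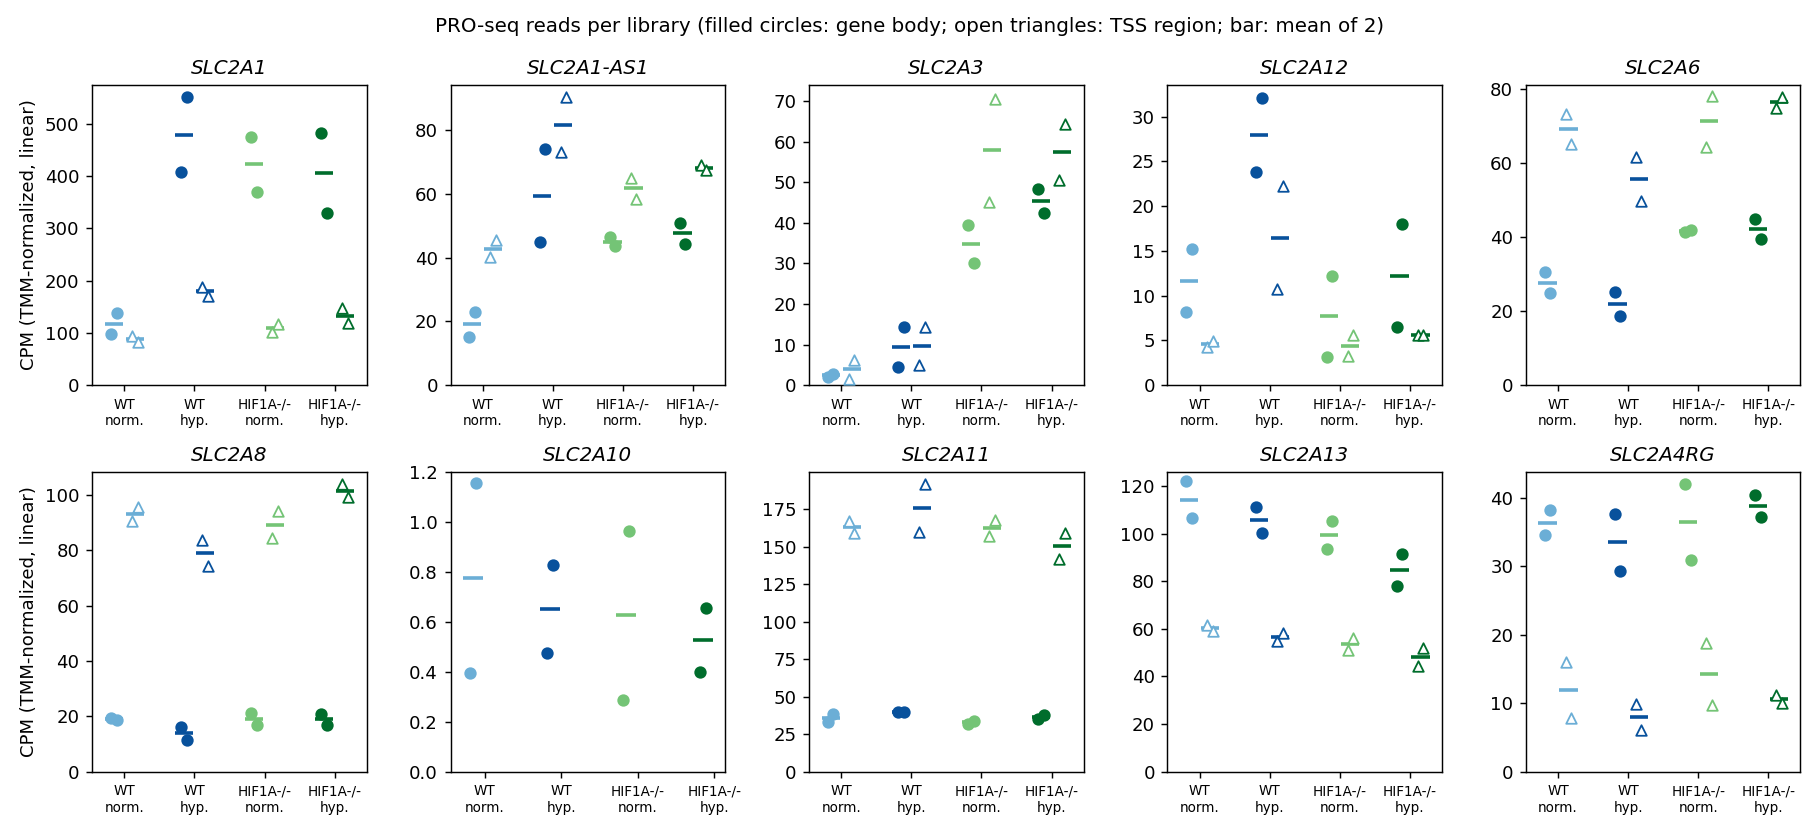
Normalized reads per library for the 10 genes (CPM, linear axes that start at 0 and differ between panels), with gene body values as filled circles, TSS values as open triangles and bars at the mean of 2 libraries; the TSS of SLC2A10 is not drawn. SLC2A1 and SLC2A1-AS1 are lowest in WT normoxia, and SLC2A3 is high in the HIF1A-/- groups alone. Gene body means of SLC2A11 run from 33.1 CPM in normoxic HIF1A-/- cells to 39.7 CPM in hypoxic WT cells. Those of SLC2A13 run from 84.7 CPM in hypoxic HIF1A-/- cells to 114 CPM in normoxic WT cells.

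In WT cells 90 min of hypoxia raised transcription of SLC2A1 and of its antisense partner, and the test called no other member. These 2 of 10 members compare with 0.431% of the 16686 gene bodies tested, or 72 calls. The SLC2A1 gene body held 98.4 and 137 CPM in the normoxic WT libraries against 408 and 551 CPM in the hypoxic ones. The groups did not overlap, and each replicate pair showed nearly the same step, of 2.05 and 2.00 on the log2 scale. The fitted change was 4.07-fold (log2 2.03, SE 0.263, adjusted p = 0.0314). SLC2A1-AS1, which produces a noncoding RNA, had 15.2 and 23.0 CPM in normoxia and 44.8 and 74.2 CPM in hypoxia, again without overlap. Its change was 3.12-fold (log2 1.64, SE 0.279, adjusted p = 0.0906), close to the threshold.

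Which genes were called varied with the libraries used. A fit without 1 library leaves 1 library in a group, which is taken to vary like the other groups. Without WT normoxia replicate 1, WT normoxia replicate 2 or WT hypoxia replicate 2, neither SLC2A1 nor SLC2A1-AS1 was called, although the SLC2A1 change stayed between 1.80 and 2.29 on the log2 scale over the 8 fits that each left out 1 library. Without HIF1A-/- hypoxia replicate 1, SLC2A1 alone was called, and SLC2A1 was also the sole call when the fit held the WT libraries alone.

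SLC2A3 and SLC2A12 were higher in hypoxic WT cells by their values but were not called by edgeR without a replicate block. SLC2A3 had 2.03 and 2.76 CPM in normoxia and 4.54 and 14.2 CPM in hypoxia, so that both hypoxic libraries were higher but lay far apart from each other. Its change of log2 1.98 (SE 0.497) had an adjusted p of 0.445, and it was 0.94 without WT hypoxia replicate 2 and 2.57 without replicate 1. DESeq2 called SLC2A3, as did the edgeR fit without WT hypoxia replicate 1. SLC2A12, a carrier related to the insulin-responsive GLUT4, had 8.18 and 15.2 CPM in normoxia and 23.8 and 32.1 CPM in hypoxia (log2 1.26, SE 0.654, adjusted p = 0.897). With the replicate number as a block, the calls numbered 4 of 10 members, against 5.51% of gene bodies, and the additional ones were SLC2A3 (adjusted p = 0.0839) and SLC2A12 (adjusted p = 0.0691).

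The other 6 members were not called in WT hypoxia, with or without the block. Their changes ran from -0.46 for SLC2A8 (SE 0.228) to 0.14 for SLC2A11 (SE 0.142) on the log2 scale. SLC2A8 was lower in both hypoxic libraries (16.2 and 11.7 CPM) than in the normoxic ones (19.6 and 18.7 CPM), with an adjusted p of 0.897. The median change over the 10 members was 0.013, beside -0.018 over all gene bodies.

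**Figure D3:**
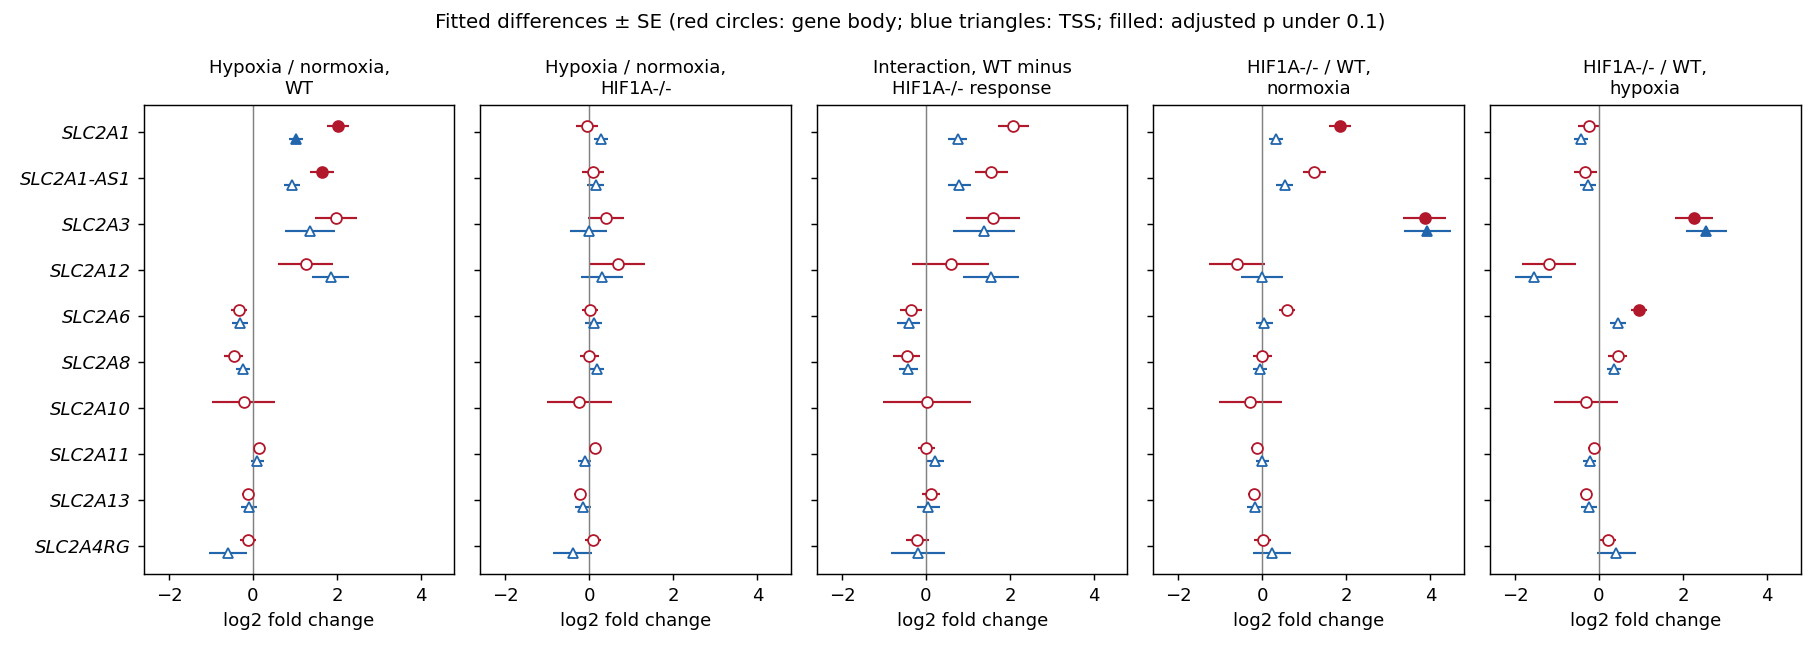
Fitted log2 differences with their SE for the 10 genes in 5 comparisons, from the edgeR fit without a replicate block; red circles are gene bodies, blue triangles are TSS regions, and filled symbols mark an adjusted p under 0.1 (the SLC2A10 TSS was not tested). SLC2A1 and SLC2A1-AS1 gene bodies are filled in WT hypoxia, SLC2A3 is filled in both regions and both genotype comparisons, and no symbol is filled for hypoxia in HIF1A-/- cells or for the interaction.

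In HIF1A-/- cells no member changed in hypoxia by the test. None of the 10 gene bodies was called, against 0% of all gene bodies (edgeR), none of the members had an unadjusted p under 0.05, and DESeq2 called none of them. SLC2A1 had 474 and 370 CPM in normoxia and 483 and 329 CPM in hypoxia, 2 ranges that overlap (log2 -0.06, SE 0.252). SLC2A1-AS1 stayed at 46.4 and 43.6 CPM in normoxia and 51.0 and 44.2 CPM in hypoxia (log2 0.08, SE 0.269). SLC2A3 held 39.5 and 30.1 CPM in normoxia and 48.4 and 42.6 CPM in hypoxia, and its change of log2 0.39 (SE 0.426) was not called. The largest change was that of SLC2A12, at log2 0.67 (SE 0.661), with 3.16 and 12.2 CPM in normoxia and 6.46 and 18.0 CPM in hypoxia. Replicate 2 was above replicate 1 for that gene in all 4 groups, and its change without 1 library at a time ran from -0.26 to 1.96.

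The difference between the genotypes in the response to hypoxia was then tested directly, as an interaction. For SLC2A1 the WT response exceeded the HIF1A-/- response by log2 2.08 (SE 0.361), with an unadjusted p of 0.000436 and an adjusted p of 0.309. No member was called, against 0.0539% of gene bodies, while 3 members, SLC2A1, SLC2A1-AS1 and SLC2A3, had an unadjusted p under 0.05. With the replicate block SLC2A1 was called (adjusted p = 0.0697; 0.384% of gene bodies), DESeq2 called both SLC2A1 and SLC2A1-AS1, and edgeR with no filter called SLC2A1. Over the 12 alternatives the adjusted p of SLC2A1 ranged from 2.36e-05 to 1. The interaction was log2 1.56 (SE 0.385) for SLC2A1-AS1 and a 3.02-fold difference between the responses for SLC2A3 (SE 0.652 on the log2 scale). For SLC2A3 it was log2 0.55 without WT hypoxia replicate 2 and 2.18 without replicate 1.

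In normoxia, SLC2A1 and SLC2A3 were transcribed more in HIF1A-/- cells than in WT cells, SLC2A3 by the larger factor. These 2 of 10 members compare with 1.78% of gene bodies called in either direction and 0.725% called higher. The WT normoxia libraries also serve as the baseline of the WT response above, so the 2 comparisons share them. SLC2A3 rose from 2.03 and 2.76 CPM in WT to 39.5 and 30.1 CPM in HIF1A-/- cells, with the groups far apart. The difference was 14.5-fold (log2 3.86, SE 0.508, adjusted p = 0.0145), the largest among the members, and it stayed between 3.65 and 4.09 when each library was left out in turn. For SLC2A1 the normoxic HIF1A-/- values of 474 and 370 CPM stood 3.59-fold above WT (log2 1.84, SE 0.261, adjusted p = 0.0182).

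Without normoxic WT replicate 1 neither gene was called, and without replicate 2 SLC2A1 alone was called. SLC2A1-AS1 was 2.36-fold higher in HIF1A-/- cells (log2 1.24, SE 0.277) and SLC2A6 differed by log2 0.59 (SE 0.191), with adjusted p values of 0.110 and 0.323. The block added both, at adjusted p values of 0.0154 and 0.0287, which made 4 of 10 members against 10.3% of gene bodies. SLC2A1-AS1 was called in 6 of the 13 alternatives: with the block, by DESeq2, with no filter, with only the groups compared and without either hypoxic WT library.

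Under hypoxia the SLC2A1 levels of the 2 genotypes overlapped, and the genes that differed were SLC2A3 and SLC2A6. Again 2 of 10 members were called, against 4.26% of gene bodies in either direction and 1.47% higher. SLC2A3 was 4.81-fold higher in HIF1A-/- cells (log2 2.26, SE 0.452, adjusted p = 0.0455), ranging from 1.68 without WT hypoxia replicate 1 to 3.34 without WT hypoxia replicate 2. SLC2A6 had 25.2 and 18.6 CPM in hypoxic WT cells and 44.9 and 39.3 CPM in hypoxic HIF1A-/- cells, a 1.93-fold difference (log2 0.95, SE 0.192, adjusted p = 0.0477). Neither gene was called without HIF1A-/- hypoxia replicate 1 or without replicate 2, and SLC2A6 was not called without WT hypoxia replicate 2. SLC2A1 differed by log2 -0.24 (SE 0.252, adjusted p = 0.696).

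With the block, 4 of 10 members were called in hypoxia, against 28.2% of gene bodies. The additional ones were SLC2A12, lower in HIF1A-/- cells by the fit without the block at log2 -1.19 (SE 0.651, adjusted p = 0.429 without and 0.0187 with the block; from -2.13 to -0.62 without 1 library at a time), and SLC2A8, higher at log2 0.45 (SE 0.227, adjusted p = 0.390 without and 0.0584 with the block). SLC2A8, which encodes an intracellular hexose carrier, had 16.2 and 11.7 CPM in hypoxic WT cells and 21.0 and 17.0 CPM in hypoxic HIF1A-/- cells, so the groups did not overlap.

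At the TSS, where promoter-proximal polymerase is counted, SLC2A1 rose in hypoxic WT cells by a smaller factor than its gene body. It had 93.5 and 82.2 CPM in normoxia and 188 and 170 CPM in hypoxia, a 2.04-fold change (log2 1.03, SE 0.166, adjusted p = 0.0907), and it was the 1 of 9 members called, against 0.046% of TSS regions. Scaling by library totals in place of TMM ended this call, as did leaving out any WT library or either hypoxic HIF1A-/- library. SLC2A1-AS1 had 40.2 and 45.4 CPM in normoxia and 73.1 and 90.5 CPM in hypoxia (log2 0.94, SE 0.194, adjusted p = 0.411). SLC2A12 had 4.22 and 4.96 CPM in normoxia and 10.7 and 22.3 CPM in hypoxia (log2 1.85, SE 0.448, adjusted p = 0.922). The block added these last 2, at adjusted p values of 0.00779 and 0.0180, for 3 of 9 members against 1.01% of TSS regions. DESeq2 also called SLC2A1-AS1, and the fit with no filter called SLC2A1-AS1, SLC2A12 and SLC2A3 beside SLC2A1. Without WT hypoxia replicate 2 the SLC2A12 difference was 1.22.

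SLC2A3 was the 1 of 9 members called at the TSS between genotypes in normoxia (0.657% of TSS regions) and in hypoxia (1.1%). It held 1.55 and 6.26 CPM in normoxic WT cells, 4.83 and 14.4 CPM in hypoxic WT cells, 45.2 and 70.6 CPM in normoxic HIF1A-/- cells and 50.7 and 64.4 CPM in hypoxic HIF1A-/- cells. Every HIF1A-/- library was above every WT library, by log2 3.93 in normoxia (SE 0.560, adjusted p = 0.00751) and 2.56 in hypoxia (SE 0.488, adjusted p = 0.0329). With the block, which called 4.29% of TSS regions in normoxia, SLC2A3 was again the 1 member called there. The normoxic call was lost without WT normoxia replicate 1 (log2 3.21), and the difference was 5.20 without replicate 2. The hypoxic difference was 1.99 without WT hypoxia replicate 1 and 3.56 without replicate 2. The hypoxic call was lost without WT hypoxia replicate 1 or either hypoxic HIF1A-/- library. With the block, 4 of 9 members were called in hypoxia, against 14.4% of TSS regions: SLC2A3 and SLC2A6 (log2 0.46 without the block) were higher in HIF1A-/- cells, and SLC2A1 (-0.43) and SLC2A12 (-1.56) lower. SLC2A12 was also called there with no filter, with only the groups compared and without either normoxic HIF1A-/- library, and it differed by -0.94 without WT hypoxia replicate 2.

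Hypoxia in HIF1A-/- cells changed the TSS of none of the 9 members by the test (0% of TSS regions called; 0 members at an unadjusted p under 0.05; 0 by DESeq2). The interaction at the TSS called none either, against 0.00657% of TSS regions, with 3 members at an unadjusted p under 0.05 (SLC2A1, SLC2A1-AS1 and SLC2A12) and 0 by DESeq2. SLC2A10 had 0 TSS reads in 7 libraries and 1 read in the 8th, and its gene body had 6 to 21 reads, too few for a change of moderate size to be detectable.

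The pausing index, TSS read density over gene body read density, was 2.90-fold lower for SLC2A1 in normoxic HIF1A-/- than in normoxic WT cells. Each density was first scaled to the TMM-normalized library size of its own region. The index is therefore not a ratio of raw read densities, and a shift of all TSS reads against all gene body reads cancels. For SLC2A1 the index was 56.6 and 35.7 in the WT libraries and 12.9 and 18.8 in the HIF1A-/- ones. The hypoxic WT libraries, at 27.5 and 18.4, overlapped the HIF1A-/- range. The genotype difference was log2 -1.54 (SE 0.284), at an adjusted p of 0.0999 that only just passed, and 1 of 9 members was called against 0.0966% of genes. Library totals in place of TMM ended the call, as did leaving out any single library other than HIF1A-/- normoxia replicate 2. The adjusted p was 0.00743 with the block, which called 0.731% of genes.

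For hypoxia in WT cells the SLC2A1 pausing index changed by log2 -1.04 (SE 0.280), with an adjusted p of 0.533 without the block and 0.0820 with it. No member was called there without the block (0.193% of genes; SLC2A1 and SLC2A1-AS1 had an unadjusted p under 0.05), and the block called SLC2A1 (0.545% of genes), as did the fit with no filter. In the other 3 comparisons no member was called, against 0% of genes for hypoxia in HIF1A-/- cells, 0.0207% for the interaction and 0.669% between genotypes in hypoxia. Those comparisons had 0, 2 and 1 members at an unadjusted p under 0.05, and pausing was not tested with DESeq2.

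Basal pausing differed widely among the 9 genes. The scaling is common to all genes of a library, so the indices order genes but do not give raw density ratios. In normoxic WT cells SLC2A4RG had 72 and 30 reads in its 551 bp TSS region. Its 3193 bp gene body held 698 and 693 reads, the higher density before scaling. Mean pausing indices in normoxic WT cells ran from 1.93 ± 1.06 (SD, n = 2) for SLC2A4RG to 337 ± 23.0 for SLC2A13, the myo-inositol carrier, with SLC2A6 the lowest of the transporter genes at 32.2 ± 1.95, SLC2A11 at 226 ± 31.1 and SLC2A1-AS1 at 97.8 ± 19.9. SLC2A3 had overlapping indices in the 2 genotypes: 22.3 and 66.2 in normoxic WT against 33.4 and 68.5 in normoxic HIF1A-/- cells (log2 0.12, SE 0.499; from -0.45 to 1.11 without 1 library at a time). SLC2A6 was at 30.9 and 33.6 in normoxic WT and 20.0 and 24.0 in normoxic HIF1A-/- cells, without overlap but not called (log2 -0.56, SE 0.214, adjusted p = 0.746).

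**Figure D4:**
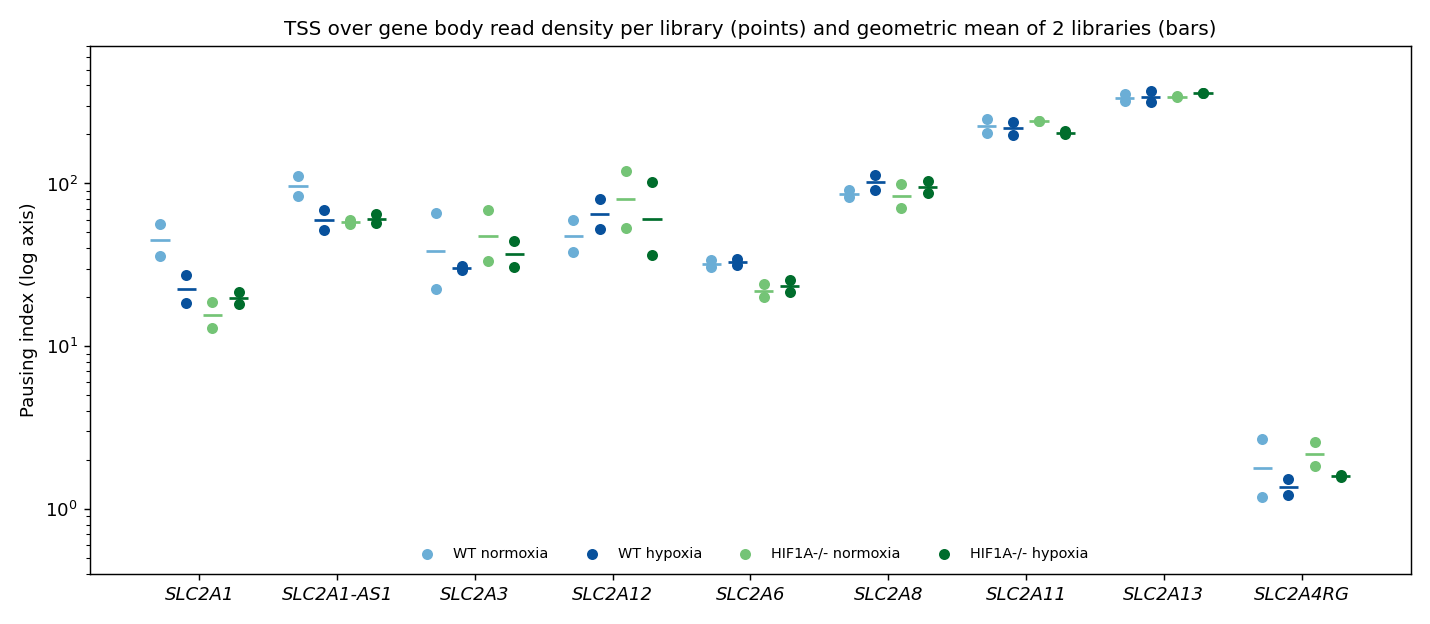
Pausing index of the 9 genes tested in both regions (TSS over gene body read density, each scaled to its own library size). The axis is logarithmic, with 1 point per library and bars at the geometric mean of the 2 libraries of a group. The index of SLC2A1 is highest in the normoxic WT libraries (56.6 and 35.7), while SLC2A13 and SLC2A4RG have the highest and lowest indices of the 9 genes in all groups.

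Neighbouring and related genes were read for shared signal. Of the SLC2A3 gene body, 9.15% of all 75-base stretches occur unchanged in the counted regions of its close paralog SLC2A14, which lies 28.0 kb away on the same strand, and no such stretch of the SLC2A3 TSS region does. SLC2A14 had 7 to 30 gene body reads and 0 TSS reads in all libraries, from 0.347 and 0.386 CPM in normoxic WT cells to 1.39 and 1.33 CPM in normoxic HIF1A-/- cells (log2 1.88, adjusted p = 0.170 without and 0.0351 with the block). Reads of these 2 genes are uncertain in the shared stretches. The authors filtered alignments on mapping quality, so reads placed equally well in both genes may have been dropped. The part of sharing in the SLC2A14 values was not tested. FOXJ2, 96.4 kb on the other side of SLC2A3, had 33.4 to 39.2 CPM in all libraries and was not called in the 5 comparisons. LOC339539, 36.6 kb from SLC2A1, differed by log2 0.49 (SE 0.252) in WT hypoxia and by 0.62 (SE 0.252) in HIF1A-/- hypoxia, where its libraries did not overlap (7.89 and 9.71 CPM against 12.8 and 14.3 CPM), and was called in neither.

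The 6 remaining SLC2A genes of the tables held few reads, or few to none in the counted TSS region. SLC2A2, SLC2A5 and SLC2A14 had at most 30 gene body reads in a library, and SLC2A4, the insulin-responsive transporter, 41 to 109. SLC2A7 and SLC2A9 held 577 to 1627 and 575 to 782 gene body reads but at most 4 TSS reads. Why their counted TSS regions held so few was not tested.

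As a description, SLC2A1-AS1 was the gene whose gene body levels followed those of SLC2A1 most closely over the 8 libraries, among 13018 genes with a mean of at least 5 CPM (Pearson r = 0.972 on log2 CPM with a pseudocount of 0.5). SERTAD2 (0.939), FOSL2 (0.937), TRAF3IP2-AS1 (0.925) and AHNAK (0.916) came next. FOSL2, a subunit of the AP-1 transcription factor, averaged 43.6 CPM in normoxic WT cells, 126 in hypoxic WT cells and 123 and 145 in normoxic and hypoxic HIF1A-/- cells. SLC2A3 ranked 128th for SLC2A1 (r = 0.753). The genes most like SLC2A3 were ERCC1 and S100A10 (both 0.990), NFYC-AS1 (0.987), CYP4F11 (0.985) and LINC01835 (0.983). S100A10, an annexin partner, averaged 35.6 and 51.5 CPM in WT cells in normoxia and hypoxia and 87.9 and 98.6 CPM in HIF1A-/- cells. The 8 points of each correlation fall into 4 groups and share libraries, so these values describe likeness only.

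Of the glycolytic genes, which act on the glucose these transporters bring in, 11 of 22 rose in hypoxic WT cells, and none was called between genotypes in normoxia without the block. No gene of the list fell in hypoxic WT cells. The 11 genes compare with 0.431% of gene bodies, and the 19 that rose with the block with 5.51%. The median of the list was log2 1.27, beside -0.018 for all gene bodies. The 5 with the smallest p were PFKFB4, a controller of phosphofructokinase (6.24-fold), PDK1, a kinase that inhibits pyruvate dehydrogenase (6.49-fold), LDHA, the lactate dehydrogenase subunit (3.16-fold), the enolase ENO2 (3.25-fold) and the aldolase ALDOC (3.42-fold). Between genotypes in normoxia edgeR and DESeq2 called none of the 22 (PDK1 alone had an unadjusted p under 0.05, and was lower with the block), and the median was 0.014. In hypoxia 14 of them were lower in HIF1A-/- cells, against 4.26% of gene bodies called (19 with the block, against 28.2%), with a median of log2 -1.04. SLC2A1 differed by log2 1.84 and -0.24 in these same comparisons, which share the WT libraries with the response. PFKFB4 and PDK1 were also called in the interaction (adjusted p = 0.0616 for both; 0.0539% of gene bodies). The interaction calls numbered 10 of 22 with the block, against 0.384%, and 12 by DESeq2.

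Without the block, other sugar transporters had no gene body calls, and genes that control transporter traffic had calls between genotypes in hypoxia alone. With 2 libraries per group, the lack of a call does not show that a gene was level. Of 20 other hexose and sugar transporters, 16 could be tested, and none was called by edgeR or DESeq2 in the 5 gene body comparisons, with at most 2 at an unadjusted p under 0.05. With the block, SLC45A1 and SLC2A7 were called in WT hypoxia (2 of 16 against 5.51% of gene bodies), SLC2A14 and SLC45A4 between genotypes in normoxia (2 of 16 against 10.3%), and SLC45A3, SLC45A4 and SLC5A10 between genotypes in hypoxia (3 of 16 against 28.2%). Of 20 genes of transporter traffic and control, 19 could be tested, and none was called in WT hypoxia, with 0 at an unadjusted p under 0.05 and 0 by DESeq2. The calls in this list came between genotypes in hypoxia: PRKAA2, a catalytic subunit of AMPK, and GIPC1, a PDZ protein that binds GLUT1, were higher and TBC1D4, a Rab GTPase-activating protein that holds back GLUT4, was lower in HIF1A-/- cells, by log2 1.23, 0.69 and -0.94. These 3 of 19 compare with 4.26% of gene bodies. With the block PRKAA2 and TBC1D4 were also called in normoxia, 2 of 19 against 10.3% of gene bodies, and RAB8A and AKT1 in hypoxia, for 5 of 19 against 28.2%. TXNIP, an arrestin-like protein that promotes removal of GLUT1 from the cell surface, had 0 to 6 gene body reads per library and could not be tested. Its relative ARRDC4 had 7.83 and 17.9 CPM in normoxic WT cells and 6.92 and 9.38 CPM in hypoxic ones, with overlapping groups (log2 -0.66, SE 0.410, adjusted p = 0.897).

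**Figure D5:**
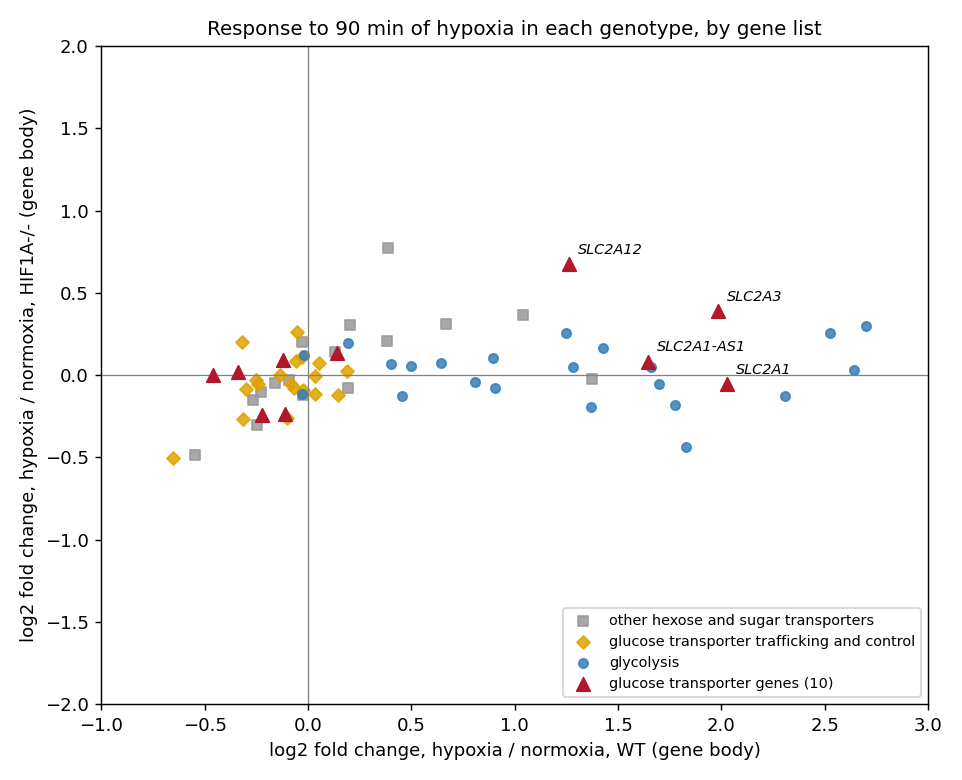
Gene body log2 fold change in hypoxia for WT cells (horizontal) and HIF1A-/- cells (vertical), 1 point per gene, with the 10 glucose transporter genes as red triangles and 3 gene lists in other symbols. SLC2A1, SLC2A1-AS1 and SLC2A3 lie among the glycolytic genes to the right, at 2.03, 1.64 and 1.98 in WT cells but at -0.06, 0.08 and 0.39 in HIF1A-/- cells, while traffic genes cluster near 0 on both axes.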

How the data were processed

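The deposited counts are raw reads per gene in 8 PRO-seq libraries. The authors merged sequencing runs, trimmed reads, aligned them to GRCh37 with HISAT2 2.1.0, filtered on mapping quality with SAMtools 1.5 and counted with featureCounts (Subread 1.6.2), keeping the most active start and the shortest body per gene. Each gene therefore has 1 start, chosen on these reads.

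Genes above 0.5 CPM in at least 2 libraries were tested with edgeR 4.0.16 (R 4.3.3; TMM, quasi-likelihood test, 1 fit of 4 group means, Benjamini-Hochberg, FDR 10%). Pausing was fitted with TSS and gene body counts of the same libraries as columns and a term per library. Groups came from the sample labels. Scripts were tested on simulated data. Alternatives were DESeq2 1.42.0, library totals, no filter, only the groups compared, each library left out, and the replicate number as a block. The labels share replicate numbers without saying what they mark; same-numbered libraries deviated together in all 6 pairs of groups (r across genes 0.501 to 0.848 for gene bodies, 0.218 to 0.522 for TSS regions), so the numbers were taken to pair the samples. Where the block changed a call of a member or a count for a list in gene bodies, its value is given beside the result.

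Members, lists and tests were chosen with earlier results of these data known. All members were named, with TXNIP, ARRDC4, up to 5 called genes per list by smallest p, the 5 genes most like SLC2A1 and SLC2A3, and the nearest neighbours within 100 kb. The 3 genes called in the traffic list, and the genes called only with the block, were named after their values were seen. All count regions lay within the GRCh37 chromosomes.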

Additional observations from a re-analysis of the deposited data

How the results depend on the processing

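The 15 counts of called members were recomputed under each alternative. With the replicate block they rose to 4 in gene bodies for WT hypoxia and for both genotype comparisons, to 1 for the gene body interaction, to 3 at the TSS in WT hypoxia and 4 between genotypes in hypoxia, and to 1 for pausing in WT hypoxia; the block changed no other count of calls by over 1.5 times. Only the groups compared gave 1 call for WT hypoxia in gene bodies and 2 at the TSS between genotypes in hypoxia. DESeq2 gave 2 for the gene body interaction and 2 at the TSS in WT hypoxia. No filter gave 1 for the gene body interaction, 4 at the TSS in WT hypoxia, 2 at the TSS between genotypes in hypoxia and 1 for pausing in WT hypoxia. Library totals gave 0 at the TSS in WT hypoxia and 0 for pausing between genotypes in normoxia. Without 1 library at a time, the gene body counts ranged from 0 to 3 in WT hypoxia and between genotypes in normoxia and from 0 to 2 between genotypes in hypoxia, the TSS counts from 0 to 1 in WT hypoxia and between genotypes in normoxia and from 0 to 2 in hypoxia, and the pausing count between genotypes in normoxia from 0 to 1. The cause of these shifts was not tested.

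Among the single-gene changes given above, those that turned sign did so only when 1 library was left out, and none of them had been called. For hypoxia in HIF1A-/- gene bodies, SLC2A1 ranged from -0.34 to 0.19 on the log2 scale, SLC2A1-AS1 from -0.0039 to 0.18 and SLC2A12 from -0.26 to 1.96. SLC2A1 between genotypes in hypoxia ranged from -0.53 to 0.0086, and the pausing change of SLC2A3 between genotypes in normoxia from -0.45 to 1.11. Over all members, regions and comparisons, 11 further changes turned sign under another tool, scaling, filter or block, none by more than 0.022 beyond 0. With 2 libraries per group, genes with few reads, such as SLC2A3 in WT cells and SLC2A10, were measured least precisely.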
